A study of Mus musculus with 14 samples.

Results

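Chemokines and their receptors were examined in mammary epithelial cells of mice that overexpress Usp22, a deubiquitinase of the SAGA transcription coactivator complex. Protein-coding genes were taken by symbol as Ccl, Cxcl, Cx3cl and Xcl ligands, Ccr, Cxcr, Cx3cr and Xcr receptors, atypical receptors (Ackr1 to Ackr4) and Ccrl2. This rule gave 42 of the 16124 genes in the deposited table, 30 of them ligands, 7 signalling receptors and 5 atypical receptors. The table held only genes that passed the authors' filter on low counts, and 20 further gene symbols of the annotation that meet the rule, 11 of them receptors such as Cxcr2, Cxcr3, Ccr3 and Ccr6, were not analysed here.

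Chemokines are small secreted proteins that guide leukocytes along concentration gradients by binding G protein-coupled receptors. They are grouped as CC, CXC, CX3C and XC ligands by the spacing of their first cysteines, and many bind more than one receptor. Atypical receptors bind chemokines without G protein signalling and take up, carry or present them. In the mammary gland, chemokines made by epithelial and stromal cells draw macrophages and eosinophils to the growing ducts, and many ligand genes are induced through NF-κB or interferon.

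Epithelial cell RNA came from nulliparous females aged 3.5 months, 7 of them WT and 7 homozygous for the Usp22 overexpression allele (OE/OE), with 1 library per mouse. The OE/OE mice carried FLAG-MYC-tagged Usp22 cDNA under the CAGGS promoter at both ROSA26 alleles, and a LoxP-flanked STOP cassette had been removed by Zp3-Cre in the female germline, so that overexpression was ubiquitous and not limited to the epithelium. WT and OE/OE mice were littermates, paired by the numbers 1, 3, 4, 5, 6, 7 and 8 in the labels. Cells came from mammary glands 2, 3 and 4, with the lymph nodes taken out of gland 4, by enzyme digestion and differential centrifugation without a sort for an epithelial surface marker.

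Usp22 ranged from 3500.0 to 5380 normalized counts in WT mice and from 74948 to 144288 in OE/OE mice, in accordance with the labels. Depth ranged from 20125106 to 41835978 fragments assigned to genes per library, and the WT library of pair 1 was the shallowest. The 10 pan-epithelial markers were detected in all libraries, with summed levels of 323535 to 552333 normalized counts in WT and 341496 to 605844 in OE/OE mice. All 10 other marker lists, of leukocyte, endothelial, fibroblast and adipocyte genes and of genes induced by dissociation, also had counts in every library. A lower count in these cell preparations cannot be told apart from fewer cells of one type. Libraries of 2 litters stood apart. The WT mouse of pair 1 had a summed level of 7570 normalized counts over 4 B cell markers, against 157 to 1355 in the other WT mice and 175 to 824 in OE/OE mice. Among OE/OE mice, that of pair 4 had a sum over 9 endothelial markers below all 13 others (15463 normalized counts, against 38867 to 80113 elsewhere).

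Between genes, levels were compared as normalized counts per kb of exon, averaged over the 14 libraries. Cxcl14, a ligand of epithelia, had the highest level with 8610 normalized counts per kb. It was followed by Cxcl1, a neutrophil attractant, with 5673, and Cxcl15, an epithelial CXC ligand, with 3438. Cx3cl1, the membrane-anchored ligand fractalkine, had 2475 and Ccl11, an eosinophil attractant, had 2075 normalized counts per kb. Their order among neighbours was not firm, since the libraries of Cxcl15, Cx3cl1 and Ccl11 overlapped in level, and the Cxcl1 average was raised by both mice of pair 1. Among receptors, the atypical Ackr1 and Ackr3 led, while the atypical Ackr2 and Ackr4 lay far below them and below Cxcr4. Ackr1, which binds many inflammatory chemokines on venules, had 2296 normalized counts per kb and Ackr3, a scavenger of CXCL12, had 999. Ccrl2, which binds the chemoattractant chemerin, had 342 and Cxcr4, the signalling receptor of CXCL12, had 298 normalized counts per kb. The order of Ccrl2 and Cxcr4 was not firm, since both mice of pair 1 raised the Ccrl2 average. They had 3699 and 2194 normalized counts of Ccrl2, against 325 to 917 in the other mice. Ccr7, a homing receptor of lymphocytes and dendritic cells, had 45.7, most of it from the WT mouse of pair 1.

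**Figure D1:**
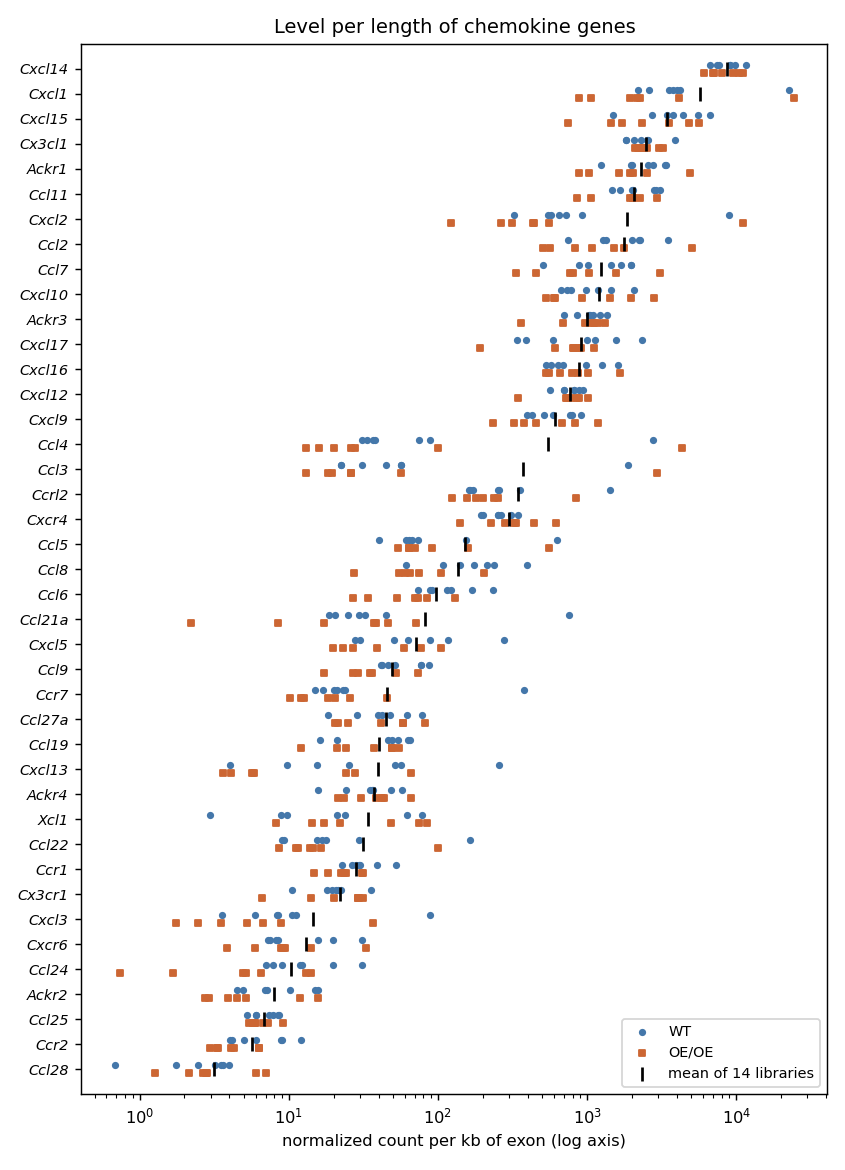
Level of each of 41 chemokine genes in each library, as normalized count per kb of exon on a log axis. Circles are WT mice, squares OE/OE mice and the black bar is the mean of 14 libraries, which lies above most points where both or one of the pair 1 mice were far higher, as for Cxcl2, Ccl3, Ccl4 and Ccr7.

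The first comparison asked whether chemokine genes differed between OE/OE and WT littermates. By limma with the littermate pair as a block and an unadjusted p of 0.05 or less, the threshold used in the study, 11 of the 42 genes fell in OE/OE mice and 0 rose. This was 26.2% of the chemokine genes, against 3.81% of all 16124 genes called, 1.85% lower and 1.95% higher. With edgeR, 10 fell and 0 rose (1.76% and 1.94% of all genes), and with DESeq2, 12 fell and 0 rose (1.94% each of all genes). Without the littermate block, 5 fell (0.62% of all genes called lower). The 11 genes were the ligands Ccl2, Ccl6, Ccl8, Ccl9, Ccl24, Cxcl1, Cxcl3, Cxcl13 and Cxcl15 and the receptors Ccr1 and Ccr2. A fold change below 0 was fitted for 34 of the 42 genes (81%) against 50.4% of all genes, and the median log2 fold change was -0.34 against -0.00147 over all genes. After Benjamini-Hochberg adjustment over all genes, no chemokine gene passed 0.05 in limma, where the smallest adjusted p was 0.568 (Ccl8). The unadjusted calls therefore stand without control of the false discovery rate. In no chemokine gene did all 7 OE/OE values lie below all 7 WT values, which was the case for 0.0124% of all genes.

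**Figure D2:**
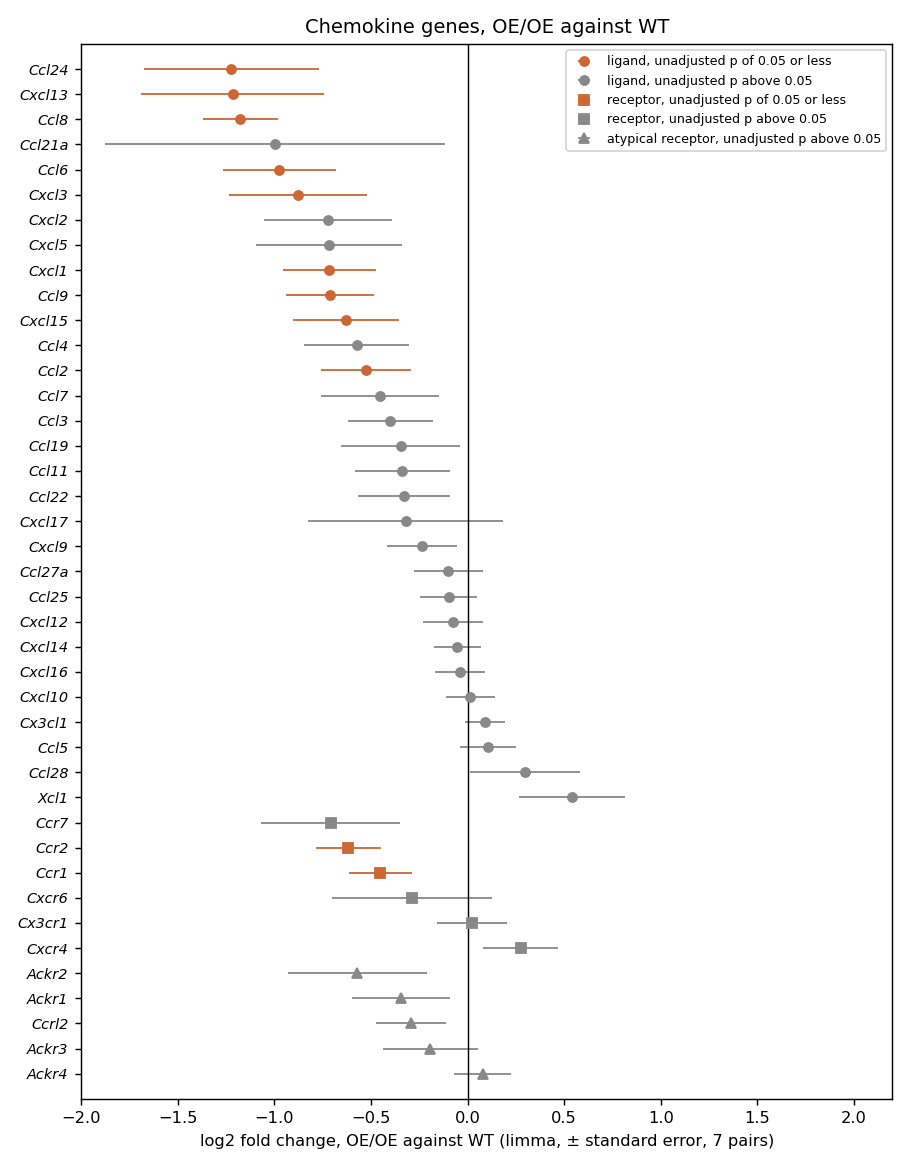
The log2 fold change of OE/OE against WT for 41 chemokine genes, with standard errors from limma over 7 pairs, grouped by role. Orange symbols mark the 11 genes with an unadjusted p of 0.05 or less, all of which lie left of 0.

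Signs within litters were counted for the same genes. Ccl8 and Ccr2 were lower in the OE/OE mouse of all 7 pairs, which was the case for 0.62% of all genes. Of the other 9 called genes, 8 were lower in 6 pairs and Cxcl3 in 5. Over the 42 genes, 15 (35.7%) were lower in 6 or 7 pairs against 6.79% of all genes, and 1 (Cxcr4) was higher in 6 or 7 pairs against 7.32% of all genes.

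Ligands and receptor of the CCR2 axis, which brings monocytes from the blood into tissue, were called lower in 3 of 4 measured genes (Ccl2, Ccl8 and Ccr2, but not Ccl7), with a median log2 fold change of -0.57 over the 4. Ccl8 attracts monocytes and, in mice, also signals through CCR8. It ranged from 31.1 to 203 normalized counts in WT mice (median 89.1) and from 14.02 to 104 in OE/OE mice (median 33.3). The highest value of each genotype was in pair 1 and the lowest in pair 5, so that the groups overlapped although every OE/OE mouse lay below its littermate. Ccl8 fell 2.26-fold (log2 fold change -1.18 ± 0.20 SE, n = 7 pairs, limma p = 0.000168, exact sign-flip p = 0.0156, the smallest that 7 pairs allow). Its adjusted p was 0.000993 with DESeq2 and ranged from there to 1 over the alternatives, edgeR giving 0.562. Ccl8 lies at chr11:82115185-82116799 on the plus strand (GRCm38).

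Ccr2, the receptor of inflammatory monocytes, ranged from 27.4 to 81.8 normalized counts in WT mice (median 40.9) and from 20.1 to 42.9 in OE/OE mice (median 27.6). In both genotypes pair 6 was highest and pair 4 lowest, and the groups overlapped. Ccr2 (chr9:124101950-124113557, plus strand) fell 1.53-fold, with a log2 fold change of -0.62 ± 0.17 (SE, limma p = 0.00455, exact sign-flip p = 0.0156). Ccl2, the main monocyte attractant that CCR2 binds, ranged from 851 to 3963 normalized counts in WT mice (median 2264) and from 575 to 5738 in OE/OE mice (median 1232). The OE/OE mouse of pair 1 held the highest value of all 14 and was the only one above its littermate. Ccl2 (chr11:82035571-82037453, plus strand) fell 1.44-fold, by a log2 fold change of -0.53 ± 0.23 (SE, limma p = 0.0481, exact sign-flip p = 0.0781), a call that was lost in 12 of 18 alternatives, among them edgeR and leaving out pair 3, 4, 5, 6, 7 or 8. Ccl7, which also binds CCR2, had medians of 1158 and 649 normalized counts in WT and OE/OE mice, was lower in 6 of 7 pairs and missed the threshold (log2 fold change -0.45 ± 0.31 SE, limma p = 0.169, exact sign-flip p = 0.281).

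**Figure D3:**
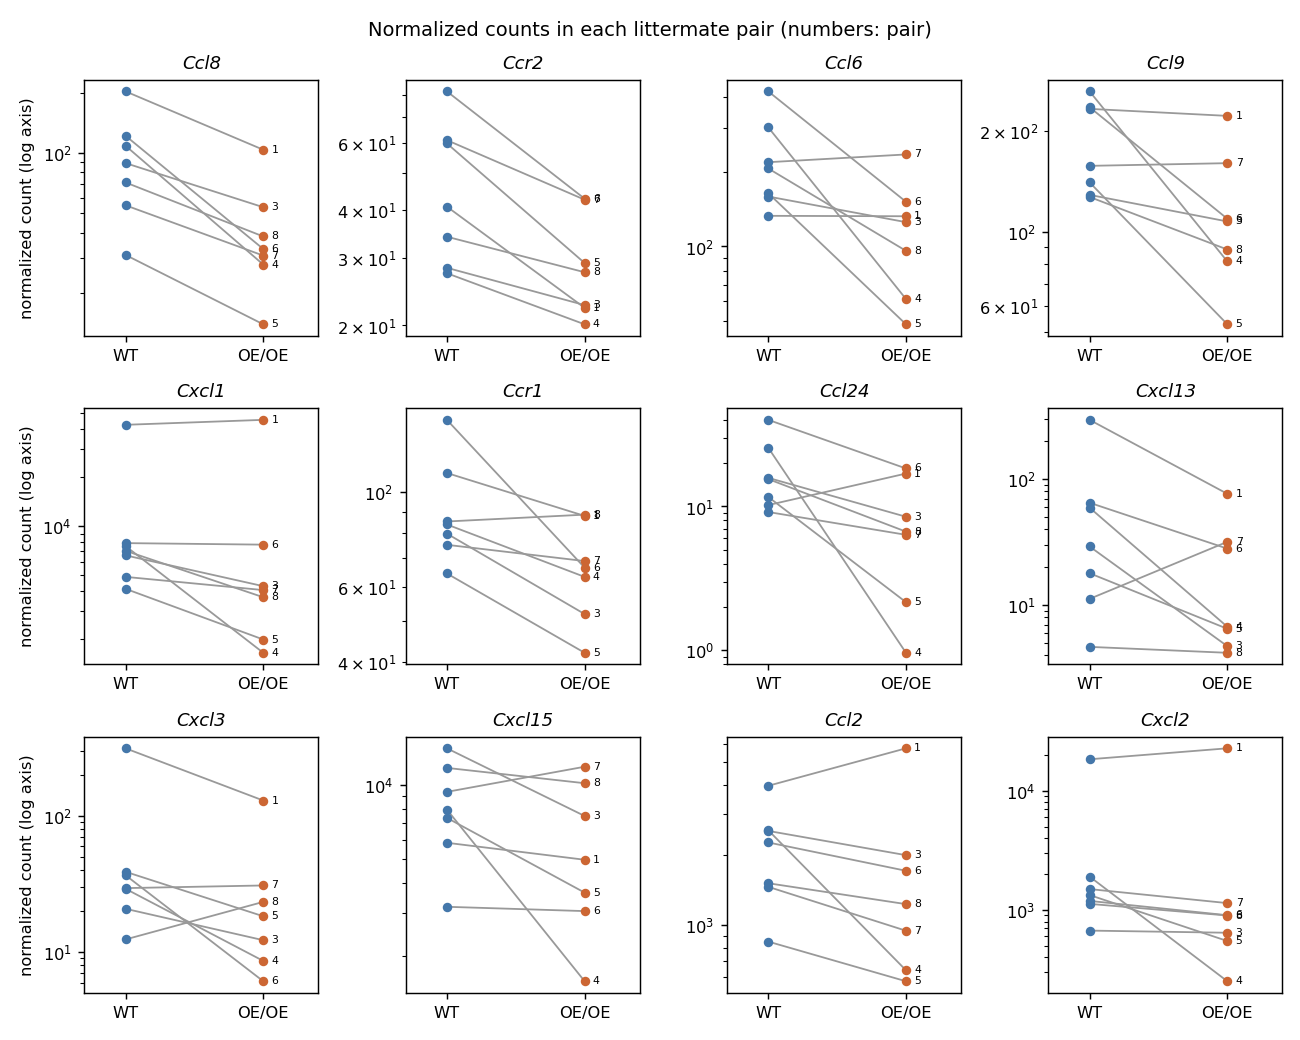
Normalized counts of the 11 called chemokine genes and Cxcl2 in each mouse on log axes, with a line joining the WT and OE/OE littermates of each pair. The lines of Ccl8 and Ccr2 descend in all 7 pairs, and the WT and OE/OE points overlap in every panel.

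The CCR1 receptor of macrophages, monocytes and neutrophils and its ligands Ccl6 and Ccl9 were called lower. Ccl6 and Ccl9 are rodent CC ligands of CCR1 that myeloid cells make, and they are neighbours on chromosome 11. Ccl6 (chr11:83587882-83593087, minus strand) ranged from 133 to 422 normalized counts in WT mice (median 206) and from 48.5 to 235 in OE/OE mice (median 125). The highest OE/OE value was in pair 7, the only pair in which the OE/OE mouse was above its littermate. Ccl6 fell 1.97-fold (log2 fold change -0.98 ± 0.29 SE, limma p = 0.00821, exact sign-flip p = 0.0469). Ccl9 (chr11:83572919-83578636, minus strand) ranged from 127 to 263 normalized counts in WT mice (median 158) and from 52.9 to 222 in OE/OE mice (median 107). Pair 7 was again the exception, with nearly equal values of 158 and 161. Ccl9 fell 1.64-fold (log2 fold change -0.71 ± 0.23 SE, limma p = 0.0112, exact sign-flip p = 0.0312).

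Ccr1, a receptor of monocytes, macrophages and neutrophils, ranged from 64.5 to 147 normalized counts in WT mice (median 83.9) and from 42.1 to 88.5 in OE/OE mice (median 66.5). Only in pair 8 was the OE/OE mouse higher, by 88.5 to 85.3 normalized counts. Ccr1 (chr9:123962124-123968692, minus strand) fell 1.37-fold (log2 fold change -0.45 ± 0.17 SE, limma p = 0.0221, exact sign-flip p = 0.0312), and this call was lost without pair 3, without pair 6 and without the littermate block. Not called were the inflammatory ligands Ccl3 (-0.40 ± 0.22), Ccl4 (-0.57 ± 0.27) and Ccl5 (0.11 ± 0.15), with limma p of 0.101, 0.0636 and 0.489 and exact sign-flip p of 0.125, 0.0938 and 0.438. The mean counts of Ccl3, Ccl4 and Cxcl2 were higher in OE/OE than in WT mice while their log2 fold changes were below 0, and in all 3 both mice of pair 1 lay far above the others, with the OE/OE mouse the higher one.

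The CXCR2 ligands draw neutrophils, and 2 of 4 measured were called lower (Cxcl1 and Cxcl3), with a median log2 fold change of -0.72 over Cxcl1, Cxcl2, Cxcl3 and Cxcl5. Cxcl1 ranged from 4104 to 42273 normalized counts in WT mice (median 7049) and from 1653 to 45361 in OE/OE mice (median 4031). Both pair 1 mice lay far above the other 12, and in that pair alone the OE/OE mouse was the higher one. Cxcl1 (chr5:90891241-90893115, plus strand) fell 1.64-fold (log2 fold change -0.72 ± 0.24 SE, limma p = 0.0151, exact sign-flip p = 0.0469), a call that was lost without the littermate block. Cxcl3 (chr5:90786103-90789600, plus strand) ranged from 12.4 to 312 normalized counts in WT mice (median 29.5) and from 6.13 to 129 in OE/OE mice (median 18.3). The pair 1 mice were again the highest of each genotype, and the OE/OE mice of pairs 7 and 8 lay above their littermates. Cxcl3 fell 1.84-fold (log2 fold change -0.88 ± 0.36 SE, limma p = 0.0353, exact sign-flip p = 0.0938), a call lost in 8 of 18 alternatives, among them leaving out pair 1, 3, 4, 5 or 6.

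Cxcl2 lay just outside the threshold. It ranged from 672 to 18428 normalized counts in WT mice (median 1335) and from 252 to 22777 in OE/OE mice (median 899), with a log2 fold change of -0.72 ± 0.33 (SE, limma p = 0.0544, exact sign-flip p = 0.0469). As for Cxcl1, pair 1 held the highest value of each genotype and was the only pair with the higher OE/OE value. Cxcl5, made by epithelial cells, had medians of 118 and 72.9 normalized counts in WT and OE/OE mice and was not called (-0.72 ± 0.38 SE on the log2 scale, limma p = 0.0898, exact sign-flip p = 0.203). Cxcl15, called lungkine for its high level in airway epithelium, attracts neutrophils and ranged from 3189 to 14129 normalized counts in WT mice (median 7948) and from 1584 to 11885 in OE/OE mice (median 4961). Its highest values were in pair 3 for WT and in pair 7 for OE/OE mice. Cxcl15 (chr5:90794534-90803067, plus strand) fell 1.55-fold (log2 fold change -0.63 ± 0.27 SE, limma p = 0.0446, exact sign-flip p = 0.109) and lost its call in 9 of 18 alternatives, among them leaving out pair 3, 4, 5 or 8. Neutrophil markers were low (S100a9 and Retnlg were not in the table), with sums over 4 genes of 124 to 373 normalized counts in WT and 163 to 283 in OE/OE mice, lower in the OE/OE mouse of 6 pairs, and none of the 4 was called. Their part in the result was not tested.

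The promoters of Cxcl1, Cxcl2 and Cxcl3 are shown because these neighbours on chromosome 5 share a κB match, and that of Ccl8 because it had the smallest p. Each line holds the 120 bases before the RefSeq transcript start in GRCm38.p6, 5′ to 3′ on the plus strand, with matches on either strand to the κB letters (GGG, any 3 bases, then TTCC) and to the TATA letters TATAAA in capitals. In GGGAATTTCCC the κB letters match on both strands, and the overlapping matches are joined.
Cxcl1, chr5:90891125-90891244: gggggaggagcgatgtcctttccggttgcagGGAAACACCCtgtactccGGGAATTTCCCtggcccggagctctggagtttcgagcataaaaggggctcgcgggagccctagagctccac
Cxcl2, chr5:90903779-90903898: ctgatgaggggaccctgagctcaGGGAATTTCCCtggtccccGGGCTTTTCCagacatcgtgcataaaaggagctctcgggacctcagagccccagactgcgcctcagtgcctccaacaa
Cxcl3, chr5:90785981-90786100: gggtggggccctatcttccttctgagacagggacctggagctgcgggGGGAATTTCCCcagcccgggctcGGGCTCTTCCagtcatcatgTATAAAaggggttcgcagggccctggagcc
Ccl8, chr11:82115065-82115184: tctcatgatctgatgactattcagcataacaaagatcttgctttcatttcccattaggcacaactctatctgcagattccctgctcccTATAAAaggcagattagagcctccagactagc

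RefSeq promoter windows, of 250 bases before and 50 after a start, were found for 31 of the 42 genes, in 36 windows. The κB letters, bound by NF-κB, were in 5 windows (13.9%), those of Ccl9, Cxcl1, Cxcl2, Cxcl3 and Cxcl10, against 5.56% of 32851 windows of all genes. Of these 5 genes, Cxcl10 had a log2 fold change near 0. The letters of interferon-stimulated response elements (TTTC, any 2 bases, then TTTC) were in 3 windows (8.33% against 3.44%), and the AP-1 letters TGANTCA in 5 (13.9% against 7.81%). TATAAA was in 11 windows (30.6% against 13.6%). These are matches of letters and no measure of binding.

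Ligands that attract eosinophils and B cells were among the called genes at low counts. Ccl24, a ligand of the eosinophil receptor CCR3, ranged from 9.15 to 40.1 normalized counts in WT mice (median 15.5) and from 0.959 to 18.4 in OE/OE mice (median 6.68). Of the 7 OE/OE mice, 5 were below every WT mouse but the groups overlapped, and 7 libraries held under 10 fragments of it. Ccl24 (chr5:135569937-135573049, minus strand) was lower in OE/OE mice in 6 of 7 pairs (log2 fold change -1.22 ± 0.45 SE, limma p = 0.0234, exact sign-flip p = 0.0469), and this was not called without pair 5. Cxcl13, the CXCR5 ligand that gathers B cells into follicles, ranged from 4.65 to 295 normalized counts in WT mice (median 29.1) and from 4.17 to 76.3 in OE/OE mice (median 6.71). Its highest value in each genotype was in pair 1, and in pair 7 the OE/OE mouse was the higher one. Cxcl13 (chr5:95956951-95961068, plus strand) had a log2 fold change of -1.22 ± 0.47 (SE, limma p = 0.0288, exact sign-flip p = 0.0938), with under 10 fragments in 5 libraries, and the call was lost in 8 of 17 alternatives, among them leaving out pair 1, 3, 4, 5 or 6. Ccl11, the other measured CCR3 ligand, had medians of 2206 and 2193 normalized counts and was not called (-0.34 ± 0.25 SE on the log2 scale, limma p = 0.201, exact sign-flip p = 0.297).

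Several abundant chemokine genes were not called. Cxcl14 had medians of 16508 and 14715 normalized counts in WT and OE/OE mice (log2 fold change -0.05 ± 0.12 SE, exact sign-flip p = 0.688), and Cx3cl1 had medians of 9076 and 9145 (0.09 ± 0.10, exact sign-flip p = 0.547). The interferon-induced CXCR3 ligands, which attract T cells and NK cells, had log2 fold changes of -0.24 ± 0.18 for Cxcl9 (exact sign-flip p = 0.328) and 0.01 ± 0.13 for Cxcl10 (exact sign-flip p = 0.922). Cxcl10 reads share a locus with the annotated gene Art3. Cxcr4 ranged from 350 to 619 normalized counts in WT mice (median 459) and from 252 to 1110 in OE/OE mice (median 584). It was higher in the OE/OE mouse of 6 pairs, with pair 5 the exception, and missed the threshold (log2 fold change 0.27 ± 0.20 SE, limma p = 0.194, exact sign-flip p = 0.219).

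Of the 5 atypical receptors, 0 were called. Ackr1 had a log2 fold change of -0.35 ± 0.25 (exact sign-flip p = 0.359), Ackr3 of -0.19 ± 0.25 (exact sign-flip p = 0.703) and Ccrl2 of -0.29 ± 0.18 (exact sign-flip p = 0.203). In 4 of the 5 genes, the lowest of the 14 mice was the pair 4 OE/OE mouse, which was the lowest in 25.3% of all genes. Its Ackr1 level was 1232 normalized counts against 4741 in its littermate, and its Ackr3 level 1198 against 4525. This is the mouse with the lowest endothelial marker sum, and Ackr1 and Ackr3 are found on endothelial cells. The part of endothelial content in these values was not tested.

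The remaining 14 genes had log2 fold changes from -0.998 (Ccl21a) to 0.54 (Xcl1), both named for being the extremes, and 0 of them were called in limma, at an unadjusted p under 0.05, or in edgeR or DESeq2. They were the CCR7 ligands Ccl19 and Ccl21a, the CCR4 ligand Ccl22, the CCR9 ligand Ccl25, the CCR10 ligands Ccl27a and Ccl28, the ligands Cxcl12, Cxcl16, Cxcl17 and Xcl1, the receptors Cx3cr1 and Cxcr6, and Ackr2 and Ackr4. Counts of Ccl19, Ccl21a and Ccl27a are uncertain, since near-identical copies of them in the mouse genome can take or lose their reads. Another gene of the table overlapped 9 of the 42 genes (Ackr1, Ackr4, Ccl25, Ccl27a, Cx3cr1, Cxcl10, Cxcl16, Cxcl17 and Cxcr6) and 0 of the 11 called ones. Whether reads were counted by strand is not given in the sources used here.

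Litters carried unequal parts of the lower values. The OE/OE mouse was below its littermate in 38 of 42 chemokine genes in pair 4 and 39 in pair 5, against 22 to 26 in the other 5 pairs. The median log2 ratio over the 42 genes was -1.02 in pair 4 and -0.58 in pair 5, while over all genes it was 0.04 and -0.02. In pairs 1, 3 and 7 the median over the 42 genes was within 0.04 of 0, and in pairs 6 and 8 it was -0.11 and -0.20. Ratios under -1 were found for 22 of the 42 chemokine genes in pair 4 (13.2% of all genes), 14 in pair 5 (4.71%) and 9 in pair 6 (2.07%). There were 7 such genes in pair 1 (4.5% of all genes), 2 in pair 8 (1.98%), 1 in pair 3 (3.41%) and 0 in pair 7 (1.4%). Without pair 4, 7 chemokine genes were called lower (3.98% of all genes), and without pair 5 it was 6 (1.41% of all genes).

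**Figure D4:**
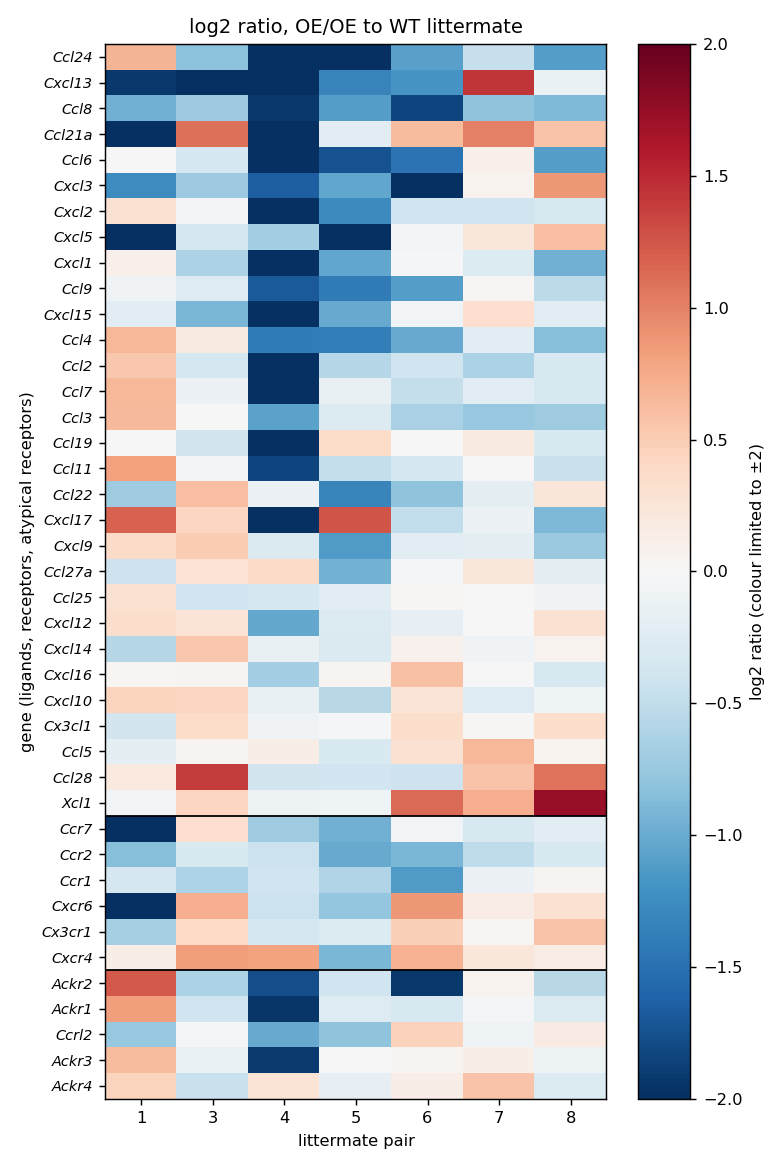
The log2 ratio of OE/OE to WT littermate for each of 41 chemokine genes (rows) in each of the 7 pairs (columns), with colours limited to ±2. The columns of pairs 4 and 5 are almost wholly below 0, where 38 and 39 of all 42 genes were lower in the OE/OE mouse, and the others are mixed.

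Marker sums also differed within litters, and not in pairs 4 and 5 alone. Of the 7 pairs, the sum was lower in the OE/OE mouse in 5 for fibroblast, 5 for macrophage and 4 for adipocyte markers. In pair 5 the fibroblast sum over 9 markers was 194764 normalized counts in the WT and 85677 in the OE/OE mouse, in pair 4 it was 114292 and 84074, in pair 3 175677 and 103911, and in pair 6 180393 and 116710. The fibroblast sum was higher in the OE/OE mouse in pair 1 (133940 and 147601) and pair 8 (139318 and 166995). The macrophage sum over 12 markers was 12364 and 7003 in pair 5, and 12974 and 9944 in pair 4. It was higher in the OE/OE mouse in pair 3 (12640 and 20333) and pair 7 (9070.5 and 10339). Adipocyte markers summed to 29939 and 6650 in pair 4, to 8896 and 4807 in pair 5 and to 23433 and 9974 in pair 8. These sums were mostly Fabp4, with a mean of 17495 normalized counts in WT mice, against 20.0 to 759 for the other adipocyte markers. Fabp4 was lower in the OE/OE mouse of 4 pairs and was not called, while each other adipocyte marker was lower in 5, 6 or 7 pairs. Across the 7 pairs, 3 of 9 fibroblast markers (Postn, Pdgfra and Lum) and 6 of 8 adipocyte markers fell and 0 of 10 epithelial markers were called, against 1.85% of all genes called lower and 3.81% called in all. The part of these cells in the chemokine result was not tested.

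The sum of squares of each gene was split between litter, which has more degrees of freedom, and genotype. The litter took a median of 68.3% over the 42 genes (73.9% over all genes) and the genotype 5.14% (1.43%). The genotype took more than the litter in 1 gene, Ccl6, with 37.4% against 34.2%. Both mice of pair 1 were the highest of the 14 in 14 chemokine genes (33.3%), against 1.67% of all genes. On average, pair 1 exceeded the other pairs by over 1 on the log2 scale in 19 of 42 genes, against 2.63% of all genes. The excess was 6.58 for Ccl4 and 6.26 for Ccl3, ligands made by activated macrophages and lymphocytes, and 4.51 for Cxcl2. It was 3.30 for Cxcl3, 3.25 for Cxcl1, 3.19 for Ccl22, 2.97 for Ccl5 and 2.44 for Ccrl2. These excesses are descriptions of 1 litter.

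Ccr7 differed within pair 1. It had 741 normalized counts in the WT mouse, 90.0 in the OE/OE littermate and at most 50.9 in the other 12 mice. Ccl21a was 659 in that WT mouse and 7.41 in its littermate. The WT mouse of pair 1 was also the one with the high B cell marker sum, at 7570 against 219 normalized counts in its littermate. Its sum over T and NK cell markers was also the highest of all mice, at 1268 against 580 normalized counts in its littermate. The part of B, T or NK cells in these values was not tested. Without pair 1, 15 chemokine genes were called lower (3.62% of all genes) and 0 higher (3.8%). When pairs 1 and 4 were both left out, which was decided with the values in view, 14 were lower (5.15% of all genes) and 3 higher (Ccl21a, Cx3cl1 and Xcl1, 6.04% of all genes).

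**Figure D5:**
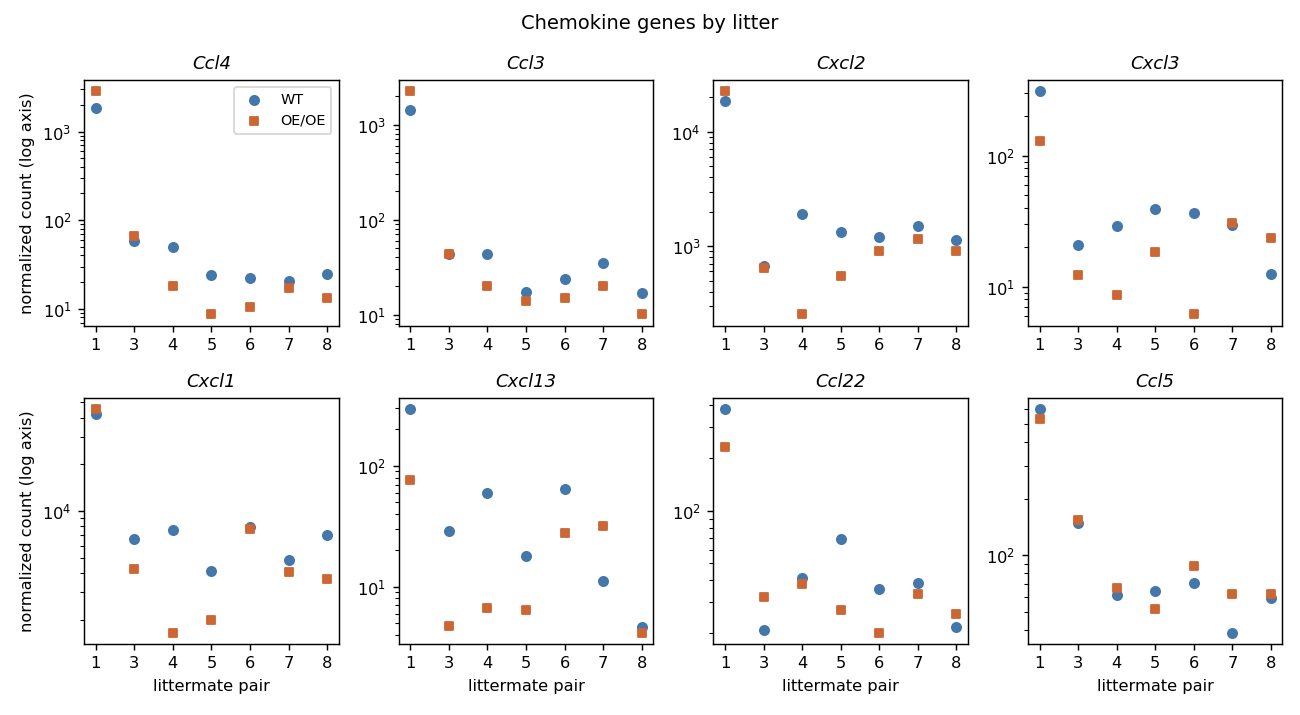
Normalized counts by littermate pair on log axes for Ccl4, Ccl3, Cxcl2, Cxcl3, Cxcl1, Cxcl13, Ccl22 and Ccl5, with WT mice as circles and OE/OE mice as squares. Both pair 1 mice lie above the other 12 mice in each panel, most widely for Ccl4 and Ccl3.

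By position, chemokine genes within 500 kb of each other formed groups. On chromosome 11, Ccl2, Ccl7, Ccl11 and Ccl8 (82035571 to 82116799) had 4 of 4 fold changes below 0 and 2 calls, and Ccl5, Ccl9, Ccl6, Ccl3 and Ccl4 (83525778 to 83664683) had 4 of 5 below 0 and 2 calls. On chromosome 5, Cxcl5, Cxcl3, Cxcl15, Cxcl1 and Cxcl2 (90759360 to 90905938) had 5 of 5 below 0 and 3 calls. Cxcl9 and Cxcl10 also lie side by side on chromosome 5, and neither was called. The groups of Ccl19 and Ccl21a on chromosome 4 and of Ccl22 and Cx3cl1 on chromosome 8 held 0 calls. Ccr1 and Ccr2, near each other on chromosome 9, were both called. Over all 42 chemokine genes, 81% were below 0 and 26.2% were called lower, against 50.4% and 1.85% of all genes. Whether position played a part was not tested.

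Genes that act with chemokines were counted from 5 lists. Of 34 inducers and NF-κB or interferon regulators in the table, 2 fell (5.88%) and 0 rose, against 1.85% and 1.95% of all genes. The share that fell lay above that background but rests on 2 genes. Il1b, an inflammatory cytokine that induces chemokines, ranged from 547 to 3830 normalized counts in WT and from 229.8 to 2784 in OE/OE mice, with every OE/OE mouse below its littermate (log2 fold change -0.69 ± 0.16 SE, limma p = 0.00149, exact sign-flip p = 0.0156). The groups overlapped. Il6, another inflammatory cytokine, had a log2 fold change of -0.60 ± 0.26 (limma p = 0.0483, exact sign-flip p = 0.0781). Of 16 related chemoattractants and receptors, 2 fell (1.85% of all genes), Csf1, the macrophage growth factor, by 0.31 on the log2 scale and Pf4, a platelet chemokine named outside the symbol rule, by 0.86. Of 37 genes of receptor signalling, 23 of leukocyte adhesion and entry and 16 chemokine proteases and matrix partners, 0 were called in limma in either direction, with median log2 fold changes of 0.00567, -0.19 and 0.00635.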

How the data were processed

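Cells of 7 littermate pairs were sequenced with the TruSeq mRNA kit. The authors mapped reads to mm10 with TopHat2 2.0.10, counted fragments per GENCODE gene with HTSeq 0.6.0, removed genes that did not reach 10 fragments in 7 or more libraries, and scaled by DESeq 1.18.0 size factors. The values deposited by the authors are thus a linear signal, normalized counts, with no pooling. Whole fragments were recovered from the steps between values (within 0.001) to obtain depth, which limits the precision of low counts.

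The main test was limma 3.58.1 (R 4.3.3, with trend) on log2(normalized count + 1), blocked by littermate pair, and unadjusted p of 0.05 or less, as in the study, with Benjamini-Hochberg values beside it. Fold changes are on this scale and understate low genes. The design named a test of this kind, and edgeR 4.0.16 and DESeq2 1.42.0 on recovered fragments were alternatives. Exact two-sided sign flips used all 128 patterns. Of these tests, limma and edgeR were checked on simulated counts, and DESeq2 and the sign flips were not. The simulated litter effects were independent between genes, unlike the excess that many chemokine genes shared in pair 1. Same-numbered mice deviated together (median r 0.522, lowest 0.171), and the methods describe them as littermates. Differently numbered mice had a median r of -0.151 but reached 0.634, so the ranges overlapped. Each mouse is a separate animal.

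The chemokine genes, axes and lists were chosen with earlier results of these data known. Values are given for chemokine genes that were called or changed one way in all pairs, the 5 highest ligands and 5 highest receptors per length, genes sharing an axis with these, and the usual CCR2, CXCR2 and CXCR3 ligands, and for listed related genes past the threshold. One chemokine gene and some marker results are not reported here, although the counts and sums include them. Exceptions were chosen after their values were seen. Alternatives were other pseudocounts, filters, tests and scalings, no block, and each pair left out. RefSeq promoter windows came from GRCm38.p6 and were missing for 11 genes.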

Additional observations from a re-analysis of the deposited data

Results flagged for a closer look

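In 11 of 56 groups of 7 mice (28 named chemokine genes, 2 genotypes), the highest mouse was set apart by a gap whose share of the group's range on the log2 scale exceeded Dixon's 95% critical value for 7 values. Chance flags about 1 in 20 groups, or 2.8 of 56, and the genes are not independent. All 11 were mice of pair 1. In WT mice, the gap was 0.855 of the range for Ccr7 (741 normalized counts, next 47.4), 0.795 for Ccl3 (1440, next 43.3) and 0.77 for Ccl4 (1818, next 58.3). It was 0.721 for Cxcl1 (42273, next 7861), 0.685 for Cxcl2 (18428, next 1908), 0.654 for Cxcl3 (312, next 38.8) and 0.641 for Ccrl2 (3699, next 917). In OE/OE mice, it was 0.739 for Ccl3 (2265, next 43.3), 0.665 for Cxcl2 (22777, next 1143), 0.66 for Ccl4 (2870, next 66.0) and 0.633 for Ccrl2 (2194, next 656).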

How the results depend on the processing

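The 11 chemokine genes called lower became 7 of 34 tested with a minimum mean of 50 normalized counts, where fewer genes were tested, 5 with no replicate block (1.13% of all genes called, 182 in place of 614), and 6 to 15 with each pair left out in turn. Leaving out pair 4 gave 7, pair 5 gave 6, and pair 1 gave 15. The 0 genes called higher became 0 to 1 with each pair left out (Cxcr4, without pair 5) and 3 without pairs 1 and 4. All genes called were 381 (without pair 6) to 1366 (without pair 4) with each pair left out and 1805 without pairs 1 and 4. The causes were not tested. Other tests and scalings gave 8 to 12 chemokine genes lower. Ccl6, Ccl8, Ccl9 and Ccr2 kept their calls in every alternative that tested them, Ccl24 lost its call without pair 5, and Cxcl1 lost its call with no block. Among the 28 named genes, direction reversed in 3, none of them called. Ackr3 ranged from -0.33 to 0.094 (log2, each pair left out), Cxcl10 from -0.058 to 0.11 with -0.040 without pairs 1 and 4, and Cxcl14 from -0.15 to 0.031 with 0.067 without pairs 1 and 4. Outside the named genes, Ccl21a went from -0.998 to 0.62 without pairs 1 and 4. Among called genes, low depth limits Ccl24, Cxcl13 and Cxcl3, each with libraries under 10 fragments.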

Other observations

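Cxcl17 and Cx3cr1 were singled out after their values were seen. Cxcl17, a ligand of mucosal epithelium, had 74.3% of its sum of squares outside litter and genotype, the largest share of the 42 genes. It ranged from 257 to 1781 normalized counts in WT mice and from 145 to 852 in OE/OE mice, and the highest WT value and the lowest OE/OE value were in the same litter, pair 4. Cx3cr1, the fractalkine receptor of macrophages, had its lowest value of each genotype in pair 1 (47.7 normalized counts in the WT and 29.7 in the OE/OE mouse, against 63.3 to 160 elsewhere).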
